A study of Mus musculus with 8 samples.

Results

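Hyaluronan genes were followed in pancreatic stellate cells (PSCs), the fibroblast-like cells of the pancreas, after medium conditioned by pancreatic cancer organoids. The 9 genes were chosen by name: the synthases Has1, Has2 and Has3, the degradation genes Cemip, Hyal1 and Hyal2, the receptor gene Cd44, and the matrix binders Tnfaip6 and Vcan. Of the 12160 genes with counts, 8 are members, and Has3 was not analysed here. The list states names and no threshold on a value, but the names were picked with earlier results of these libraries known. How far those results guided the choice is not given. The differences of these genes are thus a description of these domes, and the adjusted p-values below place each gene among all genes tested.

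The cells were an immortalized mouse PSC line, seeded at 20000 cells per Matrigel dome (growth factor reduced) and first grown in DMEM with 10% FBS for 4 days. Over the next 4 days they received medium conditioned by KPC organoids carrying an shRNA against Brca2 (shBrca2-CM, 3 domes), medium from KPC organoids carrying a non-targeting shControl (shControl-CM, 3 domes), or a control medium (2 domes). KPC organoids derive from a mouse model of pancreatic ductal adenocarcinoma. The shRNAs were in the organoids and not in the PSCs, so the knockdown cannot be checked in the libraries described here. The sample titles name the control DMEM, while the recorded treatment names medium that PSCs had conditioned themselves; it is called control medium below. All domes came from a single cell line, so the spread between them is that of cultures and not of animals, and p-values measure this spread only. How many organoid cultures or batches of medium stood behind each group is not given in the sources used here. The p-values thus cannot be read as covering separate knockdowns or batches of medium. In such bulk libraries, fewer cells of a type and less RNA per cell cannot be told apart.

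Hyaluronan is a long, unsulfated sugar polymer of the extracellular matrix. Synthases in the plasma membrane (HAS enzymes) make it from UDP-glucuronic acid and UDP-N-acetylglucosamine and extrude it from the cell, hyaluronidases and CEMIP cut it, CD44 binds it at the cell surface, and TNFAIP6 and versican anchor or crosslink it in the matrix. The stroma of pancreatic cancer is rich in hyaluronan, which fibroblasts are known to deposit.

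Reads at the 3′ ends of mRNA were counted per gene. Totals ranged from 655996 to 1095534 counts with shBrca2-CM and from 1093609 to 1624392 with shControl-CM, and were 5476988 and 4623846 with control medium. The 8 genes together held 0.0201% to 0.0267% of a library's counts, and 3 counts of a gene corresponded to 4.57 CPM (the count relative to the library total) in the smallest library but 0.548 CPM in the largest. The chi-square per degree of freedom between the counts of 2 domes, which grows with depth, was 2.99 to 8.35 with shControl-CM, 6.64 with control medium and 1.65 to 1.94 with shBrca2-CM, so no 2 domes of a group were alike within sampling noise. All 10 fibroblast markers had counts, and their summed level was 5430 to 6490 CPM with control medium, 3910 to 4520 CPM with shControl-CM and 3120 to 3290 CPM with shBrca2-CM. A large part of these sums came from Vim, which was lower with conditioned medium (3400 and 4110 CPM with control medium, 243 to 749 CPM in the other libraries), and Dcn, which was higher (80.0 and 105 CPM against 910 to 2260 CPM). Of the 10, 3 were called higher and 4 lower with shControl-CM, and 4 higher and 4 lower with shBrca2-CM. Of 10 epithelial markers 3 (Krt18, Krt19 and Muc1) could be counted, with sums of 37.0 to 41.7, 57.7 to 70.6 and 59.3 to 94.1 CPM, respectively; the defining markers Epcam, Cdh1 and Krt8 were not analysed here. Krt18 and Muc1 were called higher with both conditioned media than with control medium, and Krt19 was called lower with both, at 24.3 and 25.4 CPM with control medium, 2.04 to 3.87 CPM with shControl-CM and 5.79 to 16.2 CPM with shBrca2-CM. Of 6 myeloid markers 3 (Cd68, Lyz2 and Csf1r) could be counted, at 9.46 to 11.5, 23.7 to 36.0 and 13.0 to 26.6 CPM. Cd68 was called higher with both conditioned media than with control medium and Csf1r with shControl-CM, and Lyz2 was not called. Among the fibroblast markers, Pdgfra was called higher and Dcn and Lum lower with shBrca2-CM than with shControl-CM. In that comparison none of the 3 myeloid markers was called. Csf1r, at few counts, was at 0 to 3.55 CPM with shBrca2-CM and 7.05 to 13.6 CPM with shControl-CM (log2 fold change -2.26, edgeR adjusted p = 0.134). For Cd68 and Lyz2 the log2 fold changes were -0.31 and 0.30. The part of these markers in the results was not tested.

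Each pair of media was compared over all genes with edgeR's quasi-likelihood test. To be called, a gene needed a mean normalized count above 5, a log2 fold change beyond 0.5 in either direction and a Benjamini-Hochberg adjusted p-value below 0.1. With shControl-CM against control medium, 3 of the 8 genes were called, Has1 and Has2 higher and Cemip lower, where 37.8% of the 12086 genes tested were called (18.4% higher, 19.5% lower). With shBrca2-CM against control medium, 3 of 8 were called, Has1 and Cemip higher and Vcan lower, where 38.8% of 12049 genes were called (19.1% higher, 19.8% lower). Between shBrca2-CM and shControl-CM, 1 of 8 was called, Cemip, higher with shBrca2-CM, where 3.14% of 11035 genes were called (1.59% higher, 1.55% lower). The genes were chosen with these contrasts known, so nothing is read from the shares. Libraries of the 2 groups did not overlap for 4 of 8 genes with shControl-CM against control medium (Has1, Has2 and Hyal2 higher, Cemip lower), where this held for 59.9% of all genes (26.8% higher, 33.1% lower). The same held for 4 of 8 with shBrca2-CM against control medium (Has1, Hyal1 and, by less than the rounding of the values below, Cemip higher, Vcan lower), where it held for 57.4% (26.1% higher, 31.3% lower). The median log2 fold change of the 8 genes was 0.14 in the first comparison (-0.10 over all genes), 0.40 in the second (-0.05) and -0.03 in the third (0.03). The first 2 comparisons share the control medium libraries. Each pair was fitted with its own estimate of spread, so the sizes of p-values cannot be set against each other between comparisons. Scaled to total counts in place of TMM, the median of all genes moved from 0.03 to 0.14 between the conditioned media and from -0.10 to -0.21 with shControl-CM against control medium, and 67.7% of the calls between the conditioned media were higher with shBrca2-CM in place of 50.6%.

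**Figure D1:**
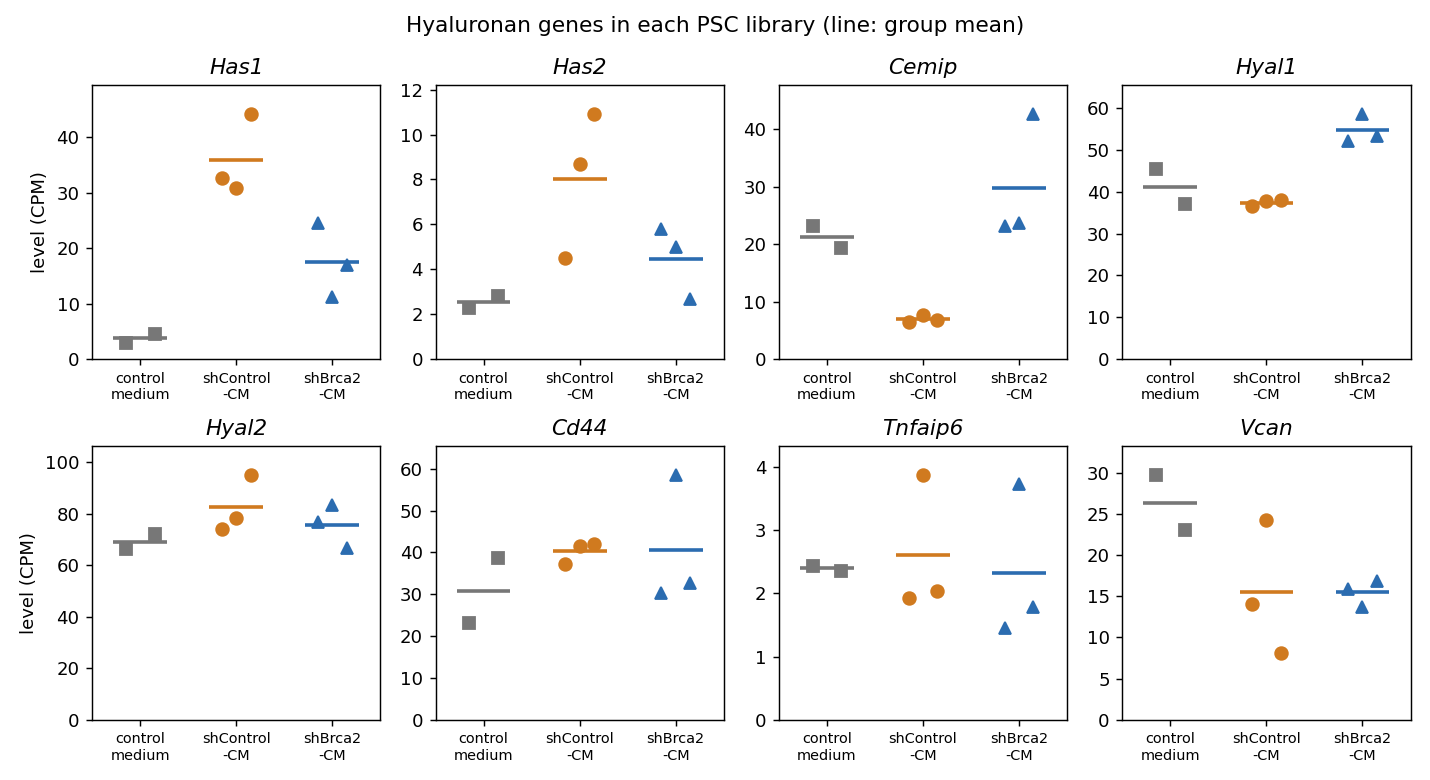
Level of each of the 8 hyaluronan genes (y axis, CPM, from 0) in every library of the 3 media (x axis); points are single domes, ordered by replicate number, and lines are group means. Has1 lies lowest with control medium and highest with shControl-CM, whereas Cemip lies lowest with shControl-CM, at 6.41 to 7.73 CPM.

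Has1, the gene of hyaluronan synthase 1 (GRCm38.p6, chr17:17833691-17855589), was the member with the largest difference from control medium. It was counted 17 and 21 times with control medium, 17, 9 and 19 times with shBrca2-CM and 51, 32 and 65 times with shControl-CM. Scaled to library size, it was at 2.95 and 4.51 CPM with control medium, 24.6, 11.2 and 16.9 CPM with shBrca2-CM and 32.7, 30.9 and 44.1 CPM with shControl-CM. The 3 groups did not overlap, and their order was control medium, shBrca2-CM, shControl-CM. Has1 rose over control medium with both conditioned media, by a log2 fold change of 3.27 (SE 0.34, edgeR adjusted p = 1.13e-04) for shControl-CM and 2.22 (SE 0.38, edgeR adjusted p = 2.46e-06) for shBrca2-CM. Between the conditioned media the log2 fold change was -1.03 (95% interval -1.69 to -0.36), which did not pass the threshold (edgeR adjusted p = 0.134). Without shControl-CM dome 1 it did (log2 fold change -1.13, edgeR adjusted p = 0.0505), and with libraries thinned to the smallest total the call of shBrca2-CM against control medium was lost (log2 fold change 2.11, edgeR adjusted p = 0.136). Spaca6, which overlaps Has1 in the RefSeq annotation, was at 24.6 to 39.6 CPM over all 8 libraries and was not called in any of the 3 comparisons.

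Because Has1 and Cemip were the members with the largest differences, and moved in opposite directions with shControl-CM, the 250 bases before the start that the RefSeq promoter table gives for each are shown (GRCm38.p6, 5′ to 3′ on the strand of the gene, which is the minus strand for both). That table names no transcript. The annotated genes reach further upstream than these starts, so the Has1 window lies inside the span given above and the Cemip window partly inside the span given for it below. Capitals mark a match to 1 of 5 motifs searched on both strands: TGANTCA (AP-1), TGACGTCA (cAMP response element), an NF-kB motif, TTCNNNGAA (STAT) and GAANNTTC (heat shock element).
Has1, chr17:17855189-17855438: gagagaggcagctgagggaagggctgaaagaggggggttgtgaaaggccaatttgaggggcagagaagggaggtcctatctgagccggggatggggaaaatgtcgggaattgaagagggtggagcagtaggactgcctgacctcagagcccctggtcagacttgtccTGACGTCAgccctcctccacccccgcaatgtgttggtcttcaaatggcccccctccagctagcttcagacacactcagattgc
Cemip, chr7:84086506-84086755: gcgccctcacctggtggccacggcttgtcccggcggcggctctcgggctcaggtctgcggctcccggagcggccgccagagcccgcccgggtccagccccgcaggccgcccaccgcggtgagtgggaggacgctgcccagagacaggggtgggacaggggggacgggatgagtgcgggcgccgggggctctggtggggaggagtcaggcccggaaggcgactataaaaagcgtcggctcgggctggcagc
In the Has1 window 1 motif matched, TGACGTCA, beginning 83 bases before the start, and this motif was found in 1.55% of 32851 RefSeq promoter windows of the same length. None of the 5 motifs matched in the Cemip window, of which 75.2% was G or C, against 58.0% for Has1. Among the other members with a window (Hyal1, Hyal2, Cd44, Tnfaip6 and Vcan), Tnfaip6 held a TGANTCA, 142 bases before its start, and a TTCNNNGAA, 209 bases before it, motifs found in 6.75% and 7.02% of all windows. GAANNTTC and the NF-kB motif, found in 6.69% and 1.41% of all windows, matched in none of the 7. A match is a description of the letters and not a site.

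Has2, the gene of hyaluronan synthase 2 (chr15:56665627-56694546), was expressed at few counts. It was counted 13 and 13 times with control medium (2.26 and 2.79 CPM), 4, 4 and 3 times with shBrca2-CM (5.79, 4.98 and 2.66 CPM) and 7, 9 and 16 times with shControl-CM (4.48, 8.70 and 10.9 CPM). The shControl-CM libraries all lay above the control medium libraries, while the shBrca2-CM libraries overlapped both other groups. Has2 rose with shControl-CM over control medium (log2 fold change 1.63 with SE 0.47, edgeR adjusted p = 0.0251), but not past the threshold when control medium dome 1 or dome 2 was left out. Over the 5 fits that left out a library the log2 fold change was 1.30 to 1.97. With shBrca2-CM the log2 fold change over control medium was 0.74 (95% interval -0.45 to 1.94, edgeR adjusted p = 0.341), and between the conditioned media it was -0.85 (95% interval -2.02 to 0.32, edgeR adjusted p = 0.549), so a difference from either was not detectable at this depth. Has2os, an antisense gene that overlaps Has2, had 0 to 2 counts in the conditioned medium libraries and 11 and 5 with control medium, and whether the counting used strand is not given in the sources used here.

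Cemip (chr7:83932857-84086693) encodes a hyaluronan-binding protein that is required for hyaluronan depolymerization by fibroblasts. It was counted 133 and 90 times with control medium (23.1 and 19.3 CPM), 10, 8 and 10 times with shControl-CM (6.41, 7.73 and 6.79 CPM), and 16, 19 and 48 times with shBrca2-CM (23.1, 23.6 and 42.6 CPM). All shControl-CM libraries lay below all others, and the highest control medium value and the lowest shBrca2-CM value were both 23.1 CPM. Cemip fell with shControl-CM against control medium (log2 fold change -1.62 with SE 0.30, edgeR adjusted p = 0.00323). Between the conditioned media Cemip was higher with shBrca2-CM (log2 difference 2.15, SE 0.35, edgeR adjusted p = 0.00640), ranked 130 of 11035 genes by absolute log2 fold change, and stayed called, at 1.78 to 2.29, in each of the 6 fits that left out a library. The epithelial marker Krt19 was also called higher with shBrca2-CM than with shControl-CM (2.12, edgeR adjusted p = 0.0632), while Krt18 (0.26, edgeR adjusted p = 0.866) and Muc1 (0.12, edgeR adjusted p = 0.873) were not called. Their part in the Cemip values was not tested. Against control medium the log2 fold change with shBrca2-CM was 0.55 (SE 0.25; edgeR adjusted p = 0.0696). This call rested on shBrca2-CM dome 3, since without it the log2 fold change was 0.14 (edgeR adjusted p = 0.786), and it was also lost without control medium dome 2 (0.44, edgeR adjusted p = 0.194) and in the likelihood ratio test of DESeq2 (0.53, adjusted p = 0.260). The decrease with shControl-CM lost its call in libraries thinned to the smallest total (log2 fold change -1.14, edgeR adjusted p = 0.151).

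Hyal1 (chr9:107576950-107581699), which encodes a lysosomal hyaluronidase, was counted 261 and 172 times with control medium (45.4 and 37.0 CPM), 57, 39 and 56 times with shControl-CM (36.5, 37.7 and 38.0 CPM) and 36, 47 and 60 times with shBrca2-CM (52.1, 58.5 and 53.3 CPM). The 3 shBrca2-CM libraries lay above all others, and the shControl-CM values fell within the range of control medium or just under it. Between the conditioned media the log2 fold change was 0.57 (95% interval 0.17 to 0.97, edgeR adjusted p = 0.174), short of the threshold. It passed when counts were scaled to library totals (log2 fold change 0.68, edgeR adjusted p = 0.0841). Against control medium it was 0.40 with shBrca2-CM (edgeR adjusted p = 0.0888), under the fold threshold but past it without control medium dome 1 (0.56, edgeR adjusted p = 0.0372) and after thinning of the libraries (1.23, edgeR adjusted p = 0.0719), and -0.15 with shControl-CM (95% interval -0.62 to 0.32, edgeR adjusted p = 0.617). Hyal1 overlaps Naa80 in the annotation, so reads could be split between them, and Naa80 was at 43.8 and 52.0 CPM with control medium, 55.0 to 62.8 CPM with shControl-CM and 62.1 to 72.2 CPM with shBrca2-CM.

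Hyal2 (chr9:107567873-107572778), the gene of a hyaluronidase anchored at the cell surface, was not called in any comparison. It was at 66.2 and 72.2 CPM with control medium, 74.3, 78.3 and 95.1 CPM with shControl-CM and 76.7, 83.4 and 66.6 CPM with shBrca2-CM, from 53 to 381 counts a library. The shBrca2-CM values overlapped both other groups, and the shControl-CM values lay above control medium. The log2 fold change was 0.25 with shControl-CM (95% interval -0.15 to 0.65) and 0.12 with shBrca2-CM (-0.23 to 0.46) against control medium, and -0.11 between the conditioned media (-0.49 to 0.26), with edgeR adjusted p = 0.311, 0.625 and 0.845, respectively. Between the conditioned media, 3 of the 8 members did not overlap (Has1 lower, Cemip and Hyal1 higher with shBrca2-CM), where this held for 19.8% of all genes tested (9.14% higher, 10.6% lower).

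**Figure D2:**
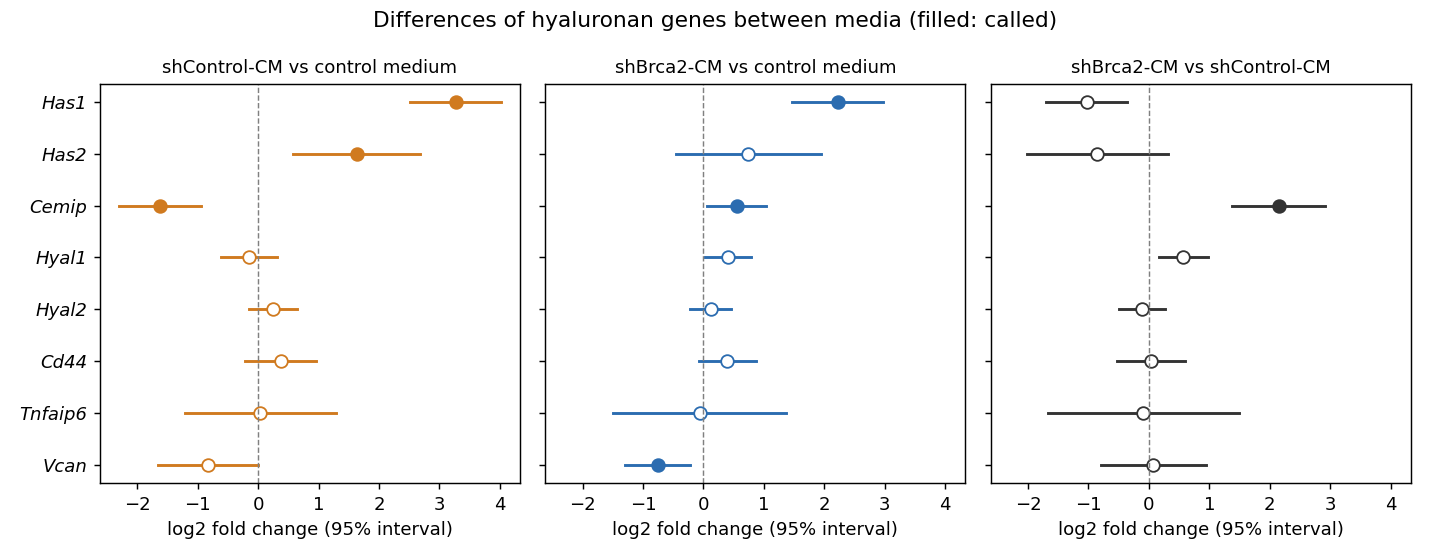
Log2 fold change of each hyaluronan gene (x axis, with its 95% interval) in the 3 comparisons (panels); filled points were called and open points were not. Has1 lies right of 0 against control medium in both left panels, and Cemip lies left of 0 with shControl-CM (-1.62) and right of 0 between the conditioned media (2.15).

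Counts of Has1 and Cemip were also set against each other within each library, a ratio that needs no scaling between libraries and was chosen after the values were seen. Has1 was highest and Cemip lowest in the shControl-CM libraries, so the place of these libraries follows from the levels above and is no further result. For 1 count of Cemip there were 0.128 and 0.233 counts of Has1 with control medium, 5.10, 4.00 and 6.50 with shControl-CM and 1.06, 0.474 and 0.396 with shBrca2-CM. The ratios of the 3 media did not overlap, but the intervals of shBrca2-CM overlapped those of both other media. These exact 95% binomial intervals cover counting error only. They ran from 1.81 to 14.2 over the shControl-CM libraries and from 0.189 to 2.25 over the shBrca2-CM libraries. Over the control medium libraries they ran from 0.0723 to 0.378. No test was made of this ratio, and since the genes may differ in their capture it says nothing of their relative amounts within a dome.

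**Figure D3:**
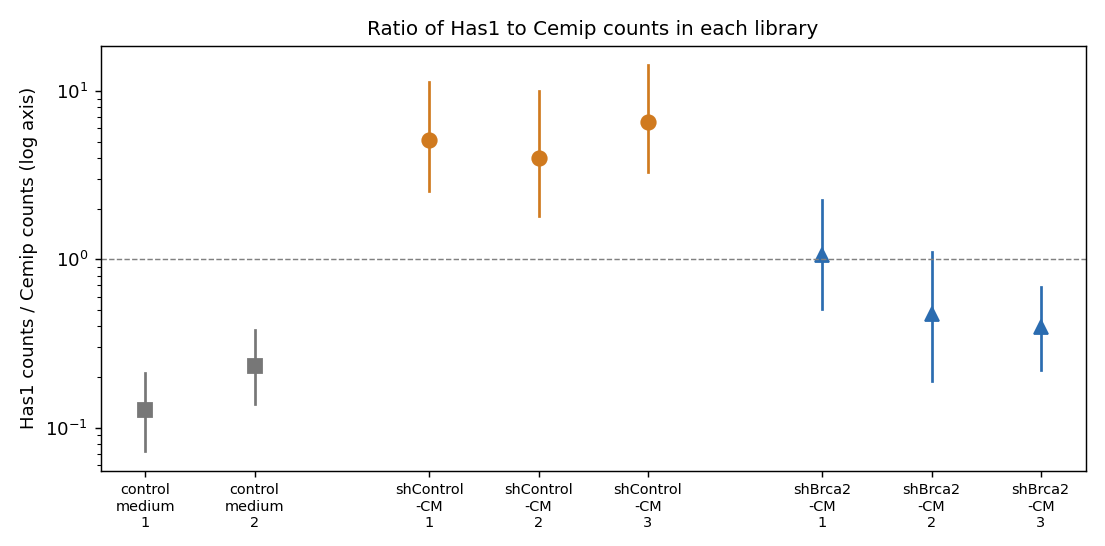
Ratio of Has1 counts to Cemip counts (y axis, log scale) in each of the 8 libraries (x axis), with exact 95% binomial intervals as bars and a dashed line at equal counts. The shControl-CM libraries lie at 4.00 to 6.50, above the shBrca2-CM libraries at 0.396 to 1.06 and the control medium libraries at 0.128 and 0.233.

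Cd44 (chr2:102811141-102901669) encodes the main cell surface receptor of hyaluronan. It was at 23.1 and 38.7 CPM with control medium, 37.2, 41.6 and 42.1 CPM with shControl-CM and 30.4, 58.5 and 32.8 CPM with shBrca2-CM, from 21 to 180 counts a library. All 3 groups overlapped, and the domes of shBrca2-CM differed more from each other than the group means did. The log2 fold change was 0.38 with shControl-CM (95% interval -0.21 to 0.96, edgeR adjusted p = 0.296) and 0.40 with shBrca2-CM (95% interval -0.07 to 0.87, edgeR adjusted p = 0.179) against control medium, and 0.03 between the conditioned media (95% interval -0.53 to 0.59, edgeR adjusted p = 0.978). Without control medium dome 2, Cd44 was called higher with shBrca2-CM (log2 fold change 0.81, edgeR adjusted p = 0.00668). Without control medium dome 1 or shBrca2-CM dome 2 the log2 fold change was 0.06 in either fit (edgeR adjusted p = 0.877 and 0.880). The value thus depends on single libraries of both groups.

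Vcan (chr13:89655309-89743027) encodes versican, a large proteoglycan that binds hyaluronan. It was counted 171 and 107 times with control medium (29.7 and 23.0 CPM), 22, 25 and 12 times with shControl-CM (14.1, 24.2 and 8.15 CPM) and 11, 11 and 19 times with shBrca2-CM (15.9, 13.7 and 16.9 CPM). The shBrca2-CM libraries lay below both control medium libraries, whereas shControl-CM dome 2 lay between them. Vcan fell with shBrca2-CM against control medium (log2 fold change -0.76 with SE 0.27, edgeR adjusted p = 0.0200), a call that was lost without control medium dome 1 (-0.55, edgeR adjusted p = 0.157) and, narrowly, in the likelihood ratio test of DESeq2 (-0.76, adjusted p = 0.101), and that was -0.26 after thinning (edgeR adjusted p = 0.909). With shControl-CM the log2 fold change was -0.83 (95% interval -1.66 to -0.0017, edgeR adjusted p = 0.113), and it was called without dome 1 or dome 2 of shControl-CM (-0.80 and -1.25, edgeR adjusted p = 0.0926 and 0.0547). The conditioned media differed by 0.07 (95% interval -0.80 to 0.95, edgeR adjusted p = 0.965).

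Tnfaip6 (chr2:52038113-52056681) encodes a secreted protein that transfers heavy chains onto hyaluronan during inflammation. It was near the floor, with 14 and 11 counts with control medium, 3, 4 and 3 with shControl-CM and 1, 3 and 2 with shBrca2-CM, or 1.45 to 3.87 CPM over all libraries. The summed counts per library size gave a ratio of shBrca2-CM to control medium of 0.953 (exact 95% counting interval 0.320 to 2.38) and of shBrca2-CM to shControl-CM of 0.931 (0.278 to 2.83), and the log2 fold change with shControl-CM against control medium was 0.04 (95% interval -1.22 to 1.29, edgeR adjusted p = 0.976). A difference within these intervals was not detectable at this depth.

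Of 43 further genes of hyaluronan metabolism and binding, 22 had counts. Against control medium, 5 were higher and 6 lower of 22 with shControl-CM, and 5 higher and 7 lower of 22 with shBrca2-CM, where 37.8% and 38.8% of all genes were called. Their median log2 fold changes were -0.11 and -0.08 (-0.10 and -0.05 over all genes). Between the conditioned media, 0 of 21 tested were called by edgeR, where 3.14% of all genes were, and DESeq2's likelihood ratio test also called 0. An unadjusted p-value under 0.05 was found for 9 of the 21 and for 13.4% of all genes tested. The nearest was Adamts1 (log2 fold change 1.36, edgeR adjusted p = 0.101), which was called with all 3 groups in a single fit (1.33, edgeR adjusted p = 0.0642) and without shControl-CM dome 1 (1.77, edgeR adjusted p = 0.0164).

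The precursor genes, which supply the sugar nucleotides, moved in both directions. Gfpt2, encoding an isoform of the enzyme that opens the hexosamine pathway, was at 12.5 and 11.2 CPM with control medium, 89.7, 61.8 and 58.4 CPM with shControl-CM and 57.9, 48.5 and 45.3 CPM with shBrca2-CM. Gfpt2 rose over control medium, with log2 fold changes of 2.56 for shControl-CM (SE 0.27, edgeR adjusted p = 1.17e-04) and 2.07 for shBrca2-CM (SE 0.23, edgeR adjusted p = 6.42e-11). With all 3 groups in a single fit the edgeR adjusted p-values were 1.3e-06 and 3.12e-05, respectively. The other isoform gene, Gfpt1, fell, with log2 fold changes of -1.78 (edgeR adjusted p = 0.00741) and -1.30 (edgeR adjusted p = 1.41e-07), from 93.3 and 76.3 CPM with control medium to 8.15 to 34.8 CPM and 32.0 to 37.3 CPM. Ugp2, whose enzyme makes UDP-glucose, fell as well (log2 fold changes of -1.91, edgeR adjusted p = 0.0108, and -1.48, edgeR adjusted p = 1.14e-05). Ugdh encodes the dehydrogenase that turns UDP-glucose into UDP-glucuronic acid. It was at 175 and 206 CPM with control medium and fell with shBrca2-CM to 88.8 to 110 CPM (log2 fold change -0.92, edgeR adjusted p = 2.55e-06, not called with all 3 groups in a single fit), while the 3 shControl-CM domes ranged widely, at 153, 76.3 and 10.9 CPM. Its difference there (log2 fold change -1.24, edgeR adjusted p = 0.140) was called without dome 3 (-0.70, edgeR adjusted p = 0.0127) or without dome 1 (-2.23, edgeR adjusted p = 4.02e-04). It was also called with all 3 groups in a single fit (-1.25, edgeR adjusted p = 0.0543) and with a replicate block (-0.74, edgeR adjusted p = 1.18e-04). Dome 3 was also the lowest of its group for Ugp2 (3.40 CPM), Gfpt1 (8.15 CPM) and Uap1 (24.4 CPM). Uap1, encoding the enzyme that makes UDP-N-acetylglucosamine, was lower with shBrca2-CM (log2 fold change -0.60, edgeR adjusted p = 0.0130) while the shControl-CM difference was -0.32 (edgeR adjusted p = 0.489). The latter rested on single domes, at -0.86 and called without shControl-CM dome 1 (edgeR adjusted p = 0.0110) and -0.0030 without dome 3. For Ugp2 the shControl-CM value was -2.91 without dome 1 and -1.46 without dome 3, the ends of its range over the 5 fits that left out a library. Without control medium dome 1 the shControl-CM calls of Ugp2 and Gfpt1 were lost, at log2 fold changes of -1.724 and -1.605. Without shBrca2-CM dome 3 the call of Uap1 with shBrca2-CM was lost (edgeR adjusted p = 0.116).

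**Figure D4:**
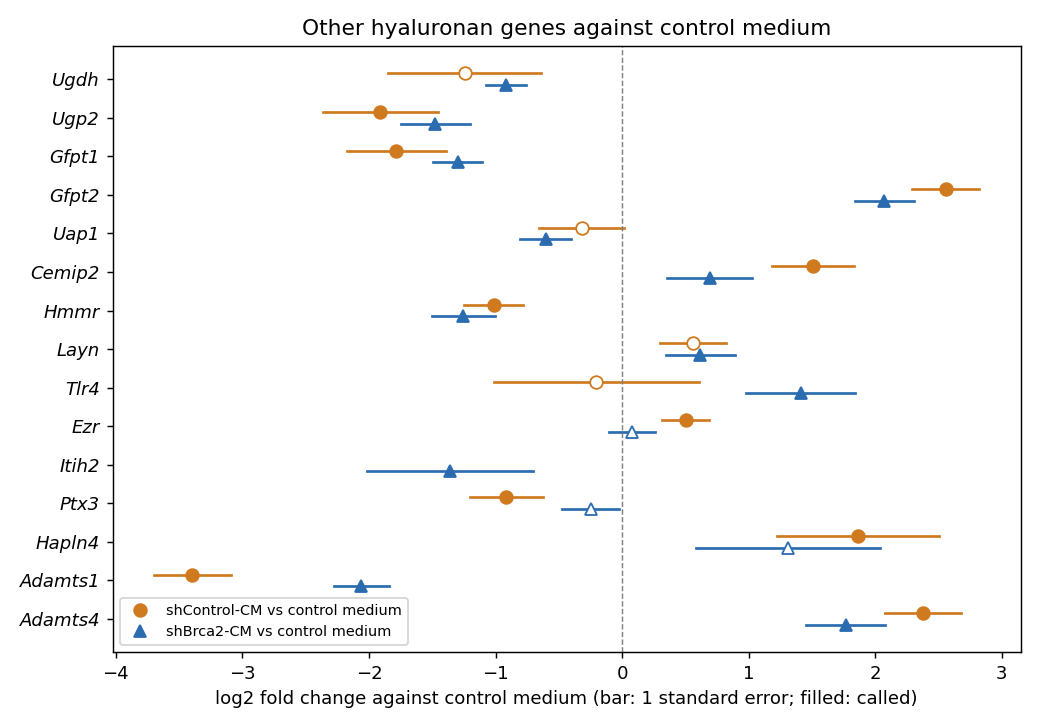
Log2 fold change against control medium (x axis; bars, 1 standard error) of the further hyaluronan genes called in at least 1 comparison (y axis), with circles for shControl-CM and triangles for shBrca2-CM, filled where called. Gfpt2 and Adamts4 lie right of 0 and Ugp2, Gfpt1, Hmmr and Adamts1 left of 0 with both conditioned media; Itih2 with shControl-CM, at 0 counts, is not drawn.

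Among the degradation genes, Cemip2, which encodes a cell surface relative of CEMIP, was at 10.1 and 7.31 CPM with control medium, 26.3, 17.4 and 30.6 CPM with shControl-CM and 18.8, 12.4 and 12.4 CPM with shBrca2-CM. It rose by 1.51 with shControl-CM (edgeR adjusted p = 0.00636) and by 0.69 with shBrca2-CM (edgeR adjusted p = 0.0949), and these calls were kept in 4 and 1 of 5 fits that left out a library. The lysosomal genes Hexa and Gusb, whose enzymes remove end sugars, were not called in any comparison; Hexa with shControl-CM passed the adjusted p-value but not the fold (log2 fold change -0.49, edgeR adjusted p = 0.0261). Of the receptors, Hmmr, also known as a mitotic spindle gene, fell with both media (log2 fold change -1.01, edgeR adjusted p = 0.00924, and -1.25, edgeR adjusted p = 4.13e-05), the first call being lost without control medium dome 1 (edgeR adjusted p = 0.140). Layn, encoding layilin, was higher with shBrca2-CM (0.62, edgeR adjusted p = 0.0641), a call kept in 2 of 5 fits that left out a library, and at 0.56 with shControl-CM (edgeR adjusted p = 0.122). Tlr4, a pattern recognition receptor gene, was higher with shBrca2-CM (1.41, edgeR adjusted p = 0.00642), at 10.1, 17.4 and 7.10 CPM against 5.74 and 2.36 CPM with control medium and 8.33, 0 and 1.36 CPM with shControl-CM. Leaving out a library moved this value between 0.96 and 2.21, and the call was lost without shBrca2-CM dome 2 (0.99, edgeR adjusted p = 0.135) and with all 3 groups in a single fit. Of the linkers of CD44 to actin, Ezr was higher with shControl-CM (0.50, edgeR adjusted p = 0.0617), a call kept in 2 of 5 fits that left out a library, while Rdx and Msn were just under the fold threshold against control medium, Rdx at 0.48 with shControl-CM (edgeR adjusted p = 0.0478) and 0.50 with shBrca2-CM (edgeR adjusted p = 0.00830), and Msn at -0.48 with shBrca2-CM (edgeR adjusted p = 0.0143). With shBrca2-CM each passed it in 3 of 5 fits that left out a library, Rdx at up to 0.59 and Msn at down to -0.69.

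Among the matrix binders, Ptx3, encoding a long pentraxin that TNFAIP6 also binds, was lower with shControl-CM (log2 fold change -0.91, edgeR adjusted p = 0.0360) and at -0.25 with shBrca2-CM (edgeR adjusted p = 0.400). Hapln4, the gene of a hyaluronan link protein, had 2 to 12 counts a library and was higher with shControl-CM (1.86, edgeR adjusted p = 0.0485), with 1.31 for shBrca2-CM (edgeR adjusted p = 0.150). The 2 calls with shControl-CM were kept in 3 and 2 of 5 fits that left out a library. Itih2, the gene of a heavy chain that TNFAIP6 transfers to hyaluronan, had 20 and 31 counts with control medium and 0 in all 3 shControl-CM libraries, and was at least 6.65-fold lower there at a floor of 3 counts over the group (5.21-fold at the exact two-sided 95% counting limit). This call was kept in 3 of 5 fits that left out a library; without control medium dome 1 or 2 the mean count no longer passed its minimum (edgeR adjusted p = 0.0414 and 0.0750). With shBrca2-CM it had 1, 1 and 3 counts, a ratio to control medium of 0.389 (exact 95% counting interval 0.121 to 0.969). Its call as lower (edgeR adjusted p = 0.0915) was kept in 1 of 5 fits that left out a library. Of the 3 versican-cleaving proteases, 1 was lower, 1 higher and 1, Adamts9, not called with either medium (log2 fold changes of 0.79, edgeR adjusted p = 0.353, and 0.53, edgeR adjusted p = 0.577). Adamts1 was at 114 and 80.8 CPM with control medium, 13.5, 6.76 and 6.79 CPM with shControl-CM and 18.8, 31.1 and 20.4 CPM with shBrca2-CM, with log2 fold changes of -3.40 (edgeR adjusted p = 4.50e-05) and -2.06 (edgeR adjusted p = 6.42e-12). Adamts4 was at 7.13 and 6.23 CPM, 27.6, 40.6 and 38.0 CPM, and 27.5, 17.4 and 24.0 CPM, and rose by 2.38 (edgeR adjusted p = 3.52e-04) and by 1.77 (edgeR adjusted p = 4.28e-06). The calls of both genes were kept in all 5 fits that left out a library, against control medium with either conditioned medium.

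For the 4 members with at least 10 counts in every library, the genes with the most similar pattern were sought among 6453 genes by the Pearson correlation of log2 CPM over the 8 libraries, as a description of libraries that fall into 3 groups of unequal depth. Hyal1 was followed most closely by Nek3 (0.967), Mgp (0.955) and Apobr (0.940), and Hyal2 by Ccdc50 (0.986), Rad54l (0.957) and Sil1 (0.948). For Cd44 these were Cenpt (0.962), Fis1 (0.908) and Erbb2 (0.895), and for Vcan Washc2 (0.982), Ubxn4 (0.978) and Fam149b (0.964).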

How the data were processed

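RNA of 8 PSC cultures was measured by MARS-seq of mRNA 3′ ends. The table the authors deposited holds raw, unnormalized gene counts with 1 column per dome; the submitters' processing notes name bcl2fastq, cutadapt, STAR 2.4.2a, HTSeq, DESeq2 and mm10. The annotation and the handling of molecular identifiers are not given in the sources used here, so intervals and floors cover counting error only. In the table, 1 column matched no sample and was not used, and each row reaches at least 6 counts in some column. Samples were grouped by recorded treatment.

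Each pair of groups was fitted over all genes with at least 10 counts (R 4.3.3, edgeR 4.0.16, TMM, quasi-likelihood, Benjamini-Hochberg over all genes); standard errors are the log2 fold change divided by the root of F. CPM were normalized over all 8 libraries. The scripts were tested on simulated data with known changes. DESeq2 1.42.0, other scalings, filters and thresholds, a joint fit, a replicate block, thinning and leaving out each library were alternatives. Members, lists and thresholds were chosen with earlier results of these data known; all members, every listed gene called in a comparison and the 3 most similar genes are named by rule, while Hexa, Gusb, Rdx, Msn and Adamts9 were added after their values were seen. Positions and promoters are RefSeq GRCm38.p6, which is mm10.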

Additional observations from a re-analysis of the deposited data

How the results depend on the processing

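Whether a single member was called held in 195 values under other settings, where 4 calls were gained and 11 lost, and in 118 with a library left out, where 5 were gained and 5 lost. No called value changed sign, but uncalled values near 0 did: between the conditioned media Hyal2 went from -0.11 to 0.0058 with total counts and Cd44 from 0.03 to -0.31 without shBrca2-CM dome 2. Between the conditioned media, 346 genes, 1 member and 0 of the 21 further genes were called. With total counts these were 2 members and 3 further genes, Adamts1 among them; without the low-count filter, with filterByExpr, or in a joint fit of all groups 1 further gene (Adamts1) was called. At an adjusted p-value under 0.05 and a log2 fold change over 1 there were 131 genes, and 227 after thinning. Leaving out a library gave 128 to 982 genes (982 without shControl-CM dome 1), 1 to 2 members and 0 to 3 further genes. With shControl-CM against control medium, 4571 genes became 2434 at the stricter thresholds and 2585 after thinning, and 1925 to 5228 with a library left out, with 2 to 4 members and 4 to 14 further genes in place of 3 and 11; the lowest counts of genes and further genes came without control medium dome 1. With shBrca2-CM against control medium, 4679 genes became 2269 and 1669, respectively. There 1 member in place of 3, Has1, was called with DESeq2's likelihood ratio test, in the joint fit and at the stricter thresholds, and 1, Hyal1, after thinning, while further genes numbered 7 in the joint fit (without Ugdh, Uap1, Cemip2, Tlr4 and Itih2), 7 at the stricter thresholds and 6 after thinning in place of 12. The cause of these changes was not tested, other than that thinning leaves fewer counts and stricter thresholds fewer calls.

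Deviations from the group mean correlated at -0.0226, -0.00553 and 0.0934 between same-numbered domes of the conditioned media. Differently numbered domes gave -0.114 to 0.124. With 3 domes a group such values cannot exclude a shared batch, and the sources used here name no link beyond the number. With the replicate block, 312, 4573 and 3908 genes were called in the 3 comparisons, and the call of Cemip with shBrca2-CM against control medium was lost (log2 fold change 0.15, edgeR adjusted p = 0.766), the only member's call to change. Depth limits Has2 and Tnfaip6 most, at 16 or fewer counts in every library.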
